A study of Mus musculus with 18 samples.

Results

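Basophils grown from the bone marrow of ST2KO mice were compared with wild-type (WT) basophils, both left unstimulated. The comparison rests on 6 of the 18 arrays of the series, chosen by their labels: 3 arrays of WT and 3 of ST2KO cells, numbered 1 to 3 within each genotype. All cells were labelled as C57BL/6J with an age of 4 to 6 weeks. The labels do not name the ST2KO allele, the culture medium or a culture time for unstimulated cells. The remaining arrays held both genotypes after IgE activation or after IL-33, each for 4 h. Whether the numbered replicates were separate cultures or animals is not in the labels, and p-values thus measure a spread between arrays that may be technical.

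Basophils are granulocytes of type 2 immunity that carry the high-affinity IgE receptor and release histamine, IL-4 and IL-13. ST2, encoded by Il1rl1, is the subunit of the IL-33 receptor that binds the cytokine. It pairs with the accessory protein encoded by Il1rap and signals through MyD88 and IRAK kinases to NF-kB and MAP kinases. Without added IL-33, a comparison of ST2KO with WT cells asks what the receptor's absence does to the resting transcriptome.

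Illumina bead arrays with 45281 probes measured the RNA. Between 33.01% and 34.7% of probes per array were detected (detection p-value under 0.05) on the 6 arrays, whose median signals were 96.5 to 104. Levels below are log2 intensities after background correction and quantile normalization. They were compared for 9973 genes, each by its brightest kept probe. Differences are ST2KO minus WT ± the standard error limma gave (n = 3 arrays a genotype), and p-values were adjusted by the Benjamini-Hochberg method over these genes. The offset added before taking logs compresses the differences of dim genes. Il1rl1 had 0 probes in the annotation used, so its level was not analysed here and the deletion could not be checked.

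Marker genes of the labelled cell type were present. Of 10 basophil markers 9 were above background on all 6 arrays, among them the protease genes Mcpt8 and Prss34, the receptor genes Fcer1a and Cd200r3, Hdc, the enzyme of histamine synthesis, and the transcription factor gene Gata2. Itga2 was above background on some of the arrays. Markers of other cells were mixed. The eosinophil markers Epx, Siglecf and Ccr3 were above background on none of the arrays, Il5ra on some and Prg2 on all 6. The dendritic cell markers Itgax, Flt3 and Zbtb46 were above background on none, and H2-Aa, H2-Ab1 and Cd74 on all 6. The lymphocyte markers Cd3e, Ms4a1 and Ncr1 and the mast cell markers Mcpt4, Mcpt1, Mcpt2 and Mrgprb1 were above background on none. Of the erythroid and megakaryocyte markers Alas2 was above background on none and Hba-a1, Pf4 and Itga2b on all 6. The mast cell markers Kit, Cma1, Tpsb2 and Tpsab1, the monocyte and macrophage markers Adgre1, Csf1r, Cd14 and Lyz2, and the neutrophil markers S100a8, S100a9 and Mpo were above background on all 6.

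WT array 2 stood apart from WT arrays 1 and 3. It had 84 genes at least 2-fold above both other WT arrays and 48 at least 2-fold below both. For WT array 1 these counts were 15 and 13, for WT array 3 they were 8 and 16, and for the ST2KO arrays they ran from 0 to 11. The correlation across genes was 0.983 and 0.985 between WT array 2 and its replicates, 0.990 between WT arrays 1 and 3, and 0.993 to 0.994 among the ST2KO arrays. Genes are not independent replicates, and these values describe the arrays only. The median standard deviation of a gene was 0.177 in WT and 0.130 in ST2KO, and it was the larger in WT for 6403 genes (64.2%). The larger differences below are therefore also given without WT array 2, which leaves WT arrays 1 and 3.

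Without stimulation, 0 of 9973 genes (0%) passed an adjusted p of 0.05 in limma, and the lowest adjusted p was 0.553. At an unadjusted p under 0.05 there were 832 genes (8.34%), 350 lower (3.51%) and 482 higher (4.83%) in ST2KO. The 3 ST2KO arrays all lay below the 3 WT arrays for 634 genes (6.36%) and all above them for 821 genes (8.23%). Without WT array 2 the groups did not overlap for 929 genes in the lower (9.32%) and 1181 in the higher direction (11.8%), and 291 genes had an unadjusted p under 0.05. The median difference of all genes was 0.02, and single differences ran from -3.19 to 1.54. The 95% confidence interval stayed within 2-fold of 0 difference for 9533 genes (95.6%), and its median reach to either side was 0.32 log2 units. For the remaining genes the interval reached or passed a 2-fold difference.

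Large differences were mostly in 1 direction. Differences of at least 2-fold numbered 68 in the lower and 10 in the higher direction, and 62 and 9 of these had groups that did not overlap. WT array 2 was the highest WT array for 67 of the 68 lower genes. Interferon response genes made up 22 of the 68, neutrophil markers made up 6, and 33 of the 68 belonged to no list. The gene lists were chosen with earlier results of these data known, so their counts describe the lists and are not independent evidence. A plot of the levels of the 10 largest differences in each direction shows these genes array by array.

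**Figure D1:**
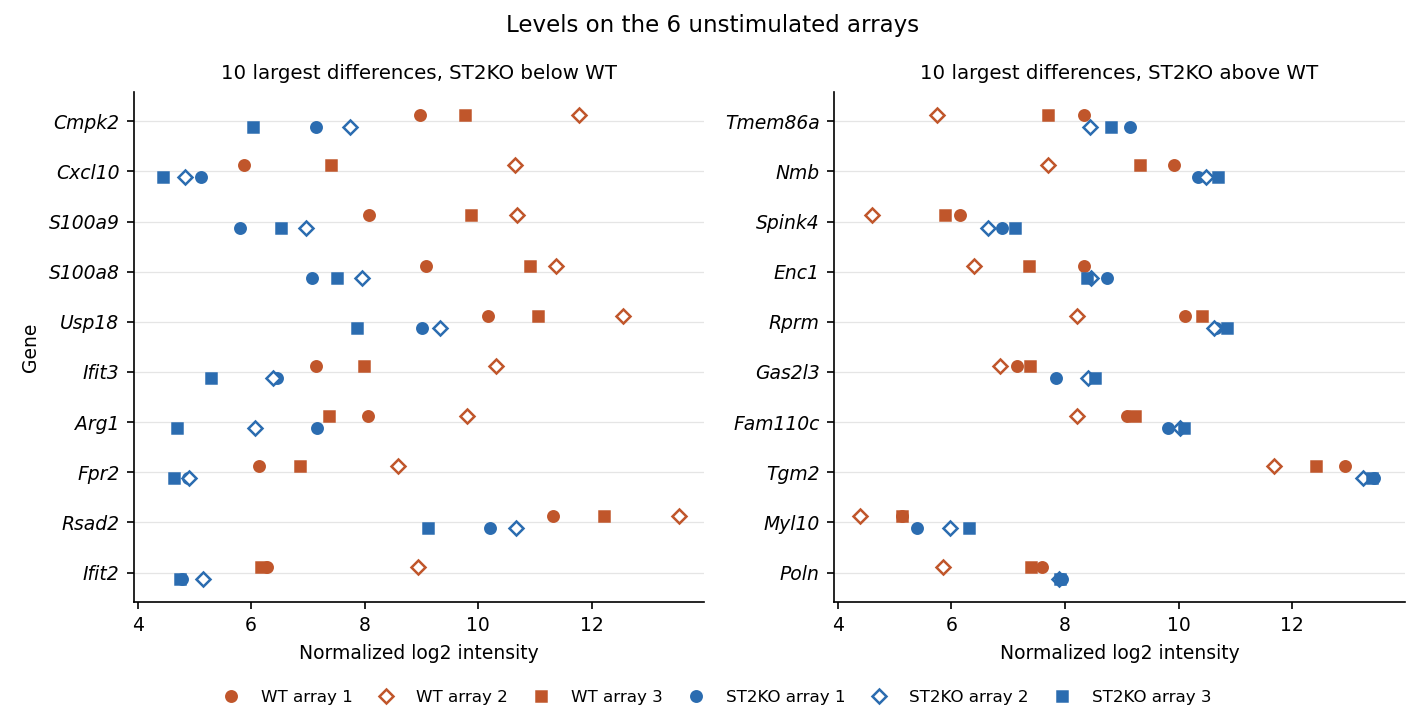
Normalized log2 intensity (horizontal axis) of the 10 genes with the largest differences in each direction among genes whose groups did not overlap and that were above background in both. Each symbol is 1 array, orange for WT and blue for ST2KO, with a symbol shape per array number. WT array 2 (open orange diamonds) is the highest of the 6 arrays for each gene on the left and the lowest for each gene on the right, and WT arrays 1 and 3 lie between it and the ST2KO arrays. Cmpk2 spans 6.04 to 11.76 and Tmem86a 5.74 to 9.14.

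Interferon response genes had the lowest median of the 30 lists examined, and the second lowest without WT array 2. These genes are induced by type I interferon through an interferon-stimulated response element in their promoters, and many of their products act against viruses. Of 57 members tested of a list of 71, 0 passed the test. All 57 differences were below 0, where 45.1% of all genes were, and the list's median was -0.91 against 0.02 for all genes. The groups did not overlap for 44 of the 57 (77.2%), against 6.36% of all genes in that direction. Without WT array 2 the median was -0.56 and 44 again did not overlap, against 9.32% of all genes. WT array 2 held the highest WT level for 54 of the 57. Fewer cells of a type and less RNA per cell cannot be told apart in these bulk samples.

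The promoters of several members hold the response element. Sequences are shown for the 4 members with the largest differences among those with a match to its motif. Members with larger differences were passed over where no match or no promoter sequence was found, Cmpk2, Usp18 and Ifit2 among them. The motif searched was GAAANNGAAA, on both strands and with overlapping matches counted, in the 250 bases before the gene start. It was found in 16 of the 45 list members with a promoter in the table (35.6%) and in 270 of 8129 tested genes with one (3.32%). A match is a description of the letters and not a site shown to be bound. The windows are from RefSeq on GRCm38.p6, written 5′ to 3′ along the strand of the gene, and capitals mark the motif, which is read on the opposite strand where it appears as TTTC pairs. They lie at chr5:92349073-92349122 (minus strand) for Cxcl10, chr19:34583353-34583436 (plus strand) for Ifit3, chr12:26456543-26456592 (minus strand) for Rsad2 and chr4:156200855-156200916 (minus strand) for Isg15. Ifit3 holds 2 matches and Isg15 holds 3 that overlap.
Cxcl10: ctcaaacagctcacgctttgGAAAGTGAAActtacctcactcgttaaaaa
Ifit3: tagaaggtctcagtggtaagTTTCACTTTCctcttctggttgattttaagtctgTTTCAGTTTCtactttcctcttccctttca
Rsad2: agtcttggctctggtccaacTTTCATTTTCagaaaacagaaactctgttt
Isg15: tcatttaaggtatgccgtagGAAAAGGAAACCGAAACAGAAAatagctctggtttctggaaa

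Effector genes of the interferon response led the list. Cmpk2, a mitochondrial nucleotide kinase gene next to Rsad2 in the mouse genome, was at 8.97, 11.76 and 9.76 on WT arrays 1, 2 and 3 and at 7.14, 7.74 and 6.04 on ST2KO arrays 1, 2 and 3. The 3 ST2KO arrays were all below the lowest WT array, and the WT arrays were the more widely spread. Its difference was -3.19 ± 0.96 (95% confidence interval -5.22 to -1.16, adjusted p = 0.553 in limma), and -2.39 ± 1.01 without WT array 2. Rsad2, which encodes the antiviral protein viperin, was at 11.32, 13.52 and 12.22 in WT and at 10.20, 10.66 and 9.11 in ST2KO, again without overlap. Its difference was -2.36 ± 0.88, and -1.78 without WT array 2. Cxcl10, the gene of a chemokine for T cells that interferons induce, was at 5.88, 10.64 and 7.41 in WT and at 5.12, 4.84 and 4.45 in ST2KO. WT array 2 stood 3.23 log2 units above the next WT array, and the difference of -3.18 ± 1.10 became -1.85 ± 1.02 without it; its other kept probe differed by -1.69. Ifit3, one of the genes of translation inhibitors that recognise viral RNA, was at 7.15, 10.31 and 7.99 in WT and at 6.45, 6.38 and 5.29 in ST2KO. Its difference was -2.44 ± 0.996 (-1.53 without WT array 2), and a near-identical mouse copy, Ifit3b, could share its probe. The other kept probe of Ifit3 differed by -0.92. Ifit2, of the same family, differed by -2.23 ± 0.68 (-1.32 without WT array 2), and Oasl1, which encodes a protein of the oligoadenylate synthetase family, by -2.02 ± 0.68 (-1.48), with its 3 probes between -2.02 and -1.20. Mx1, an antiviral GTPase gene, rested on WT array 2: its difference was -0.87 ± 0.48, and -0.20 without that array.

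Regulators of the pathway had the same sign. Isg15, the gene of a ubiquitin-like modifier, was at 9.60, 11.74 and 10.69 in WT and at 8.74, 9.04 and 7.92 in ST2KO, and its difference was -2.11 ± 0.85, or -1.58 without WT array 2. Usp18, which encodes the protease that removes ISG15 and restrains interferon receptor signalling, differed by -2.53 ± 0.86 (-1.88 without that array) and was at 10.17, 12.54 and 11.05 against 9.003, 9.32 and 7.86. Neither gene's groups overlapped. Irf7, the transcription factor gene that amplifies interferon production, differed by -1.93 ± 0.82 (-1.42). Irf9 and Stat2, which encode parts of the factor that carries the signal to the nucleus, differed by -0.88 ± 0.33 (-0.63) and -1.02 ± 0.47 (-0.65). Irf9 did not overlap between the groups, and Stat2 did. Slfn2, a Schlafen family gene, had the smallest standard error relative to its difference among the interferon response genes named, at -0.96 ± 0.20 (-0.71 without WT array 2), with 9.40, 10.39 and 9.84 in WT and 8.89, 9.18 and 8.66 in ST2KO (unadjusted p = 0.000147, adjusted p = 0.553 in limma).

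The list mean per array shows how the genotypes lay in the other treatments. Over the 57 genes it was 8.23, 9.52 and 8.60 on the unstimulated WT arrays and 7.79, 7.86 and 7.44 on the ST2KO arrays. After IgE it was 7.18, 8.66 and 7.56 in WT and 7.01, 7.14 and 6.97 in ST2KO, and after IL-33 it was 8.30, 9.57 and 7.89 against 8.58, 7.80 and 7.52. The WT array labelled number 2 had the highest mean in each treatment, and the genotypes did not overlap without stimulation or after IgE but overlapped after IL-33. Of the 57 members 21 did not overlap in the lower direction after IgE, against 6.28% of all genes, and 6 after IL-33, against 9.49%. The median genotype difference was -0.65 after IgE and -0.53 after IL-33. No member passed after IgE, and 2 passed in the lower direction after IL-33. Whether array 2 of each WT treatment came from the same cultures is not in the labels, and its part in the result was not tested beyond leaving it out.

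**Figure D2:**
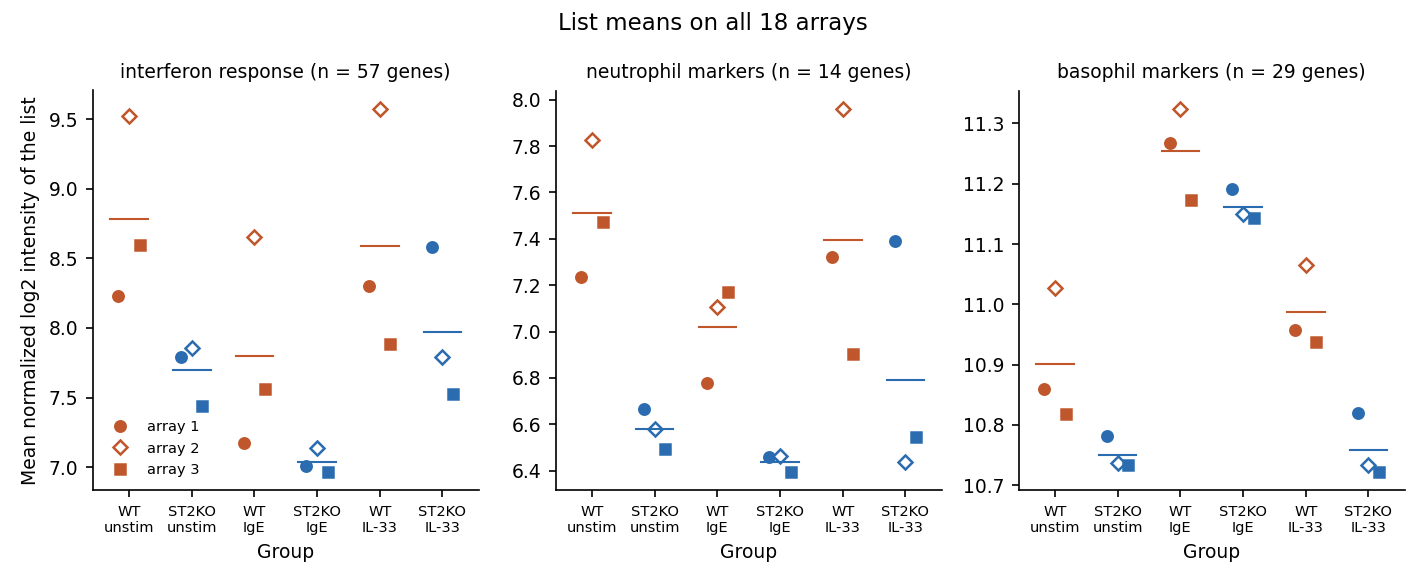
Mean normalized log2 intensity (vertical axis) of the interferon response, neutrophil marker and basophil marker lists on each of the 18 arrays, by genotype and treatment (horizontal axis). Each symbol is 1 array, with a shape per array number, and bars are group means. In the left panel the WT array numbered 2 is highest in each treatment (9.52 unstimulated), and in the right panel the unstimulated arrays lie between 10.73 and 11.03.

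Neutrophil markers had the second lowest median, and the lowest without WT array 2. S100a8 and S100a9 encode the subunits of calprotectin, an alarmin that neutrophils and monocytes hold in quantity. S100a9 was at 8.07, 10.67 and 9.87 on the WT arrays and at 5.80, 6.96 and 6.53 on the ST2KO arrays. S100a8 was at 9.07, 11.36 and 10.91 in WT and at 7.06, 7.95 and 7.503 in ST2KO. Without stimulation both genes were lower on each ST2KO array than on each WT array, and WT array 1 was the lowest WT array for both. The differences were -3.11 ± 1.09 and -2.94 ± 1.08 (adjusted p = 0.553 for both in limma), and -2.54 and -2.49 without WT array 2. Of 14 members tested of 21, 0 passed, 13 were below 0 and 5 did not overlap in the lower direction (35.7%, against 6.36% of all genes). The list's median was -0.75, and -0.62 without WT array 2. The calprotectin genes varied widely in the other treatments. After IL-33 the genotypes overlapped for both. S100a8 was then at 8.96, 11.58 and 7.14 in WT and at 10.89, 7.36 and 7.43 in ST2KO. S100a9 was at 7.99, 10.79 and 6.40 against 9.90, 6.21 and 6.37. After IgE S100a8 overlapped slightly, with 6.08 on WT array 1 and 6.14 on ST2KO array 2, and S100a9 did not overlap.

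Other genes of neutrophils and phagocytes had smaller differences than the calprotectin genes. Mmp9, a gelatinase gene, differed by -1.18 ± 0.44 (-0.78 without WT array 2) and Lcn2, which encodes an iron-siderophore binding protein, by -1.04 ± 0.31 (-0.68), both without overlap. Ltf, the lactoferrin gene, was not above background on any ST2KO array and was at least 1.66-fold lower there than in WT, or 1.67-fold without WT array 2 (adjusted p = 0.553 in limma). Cxcr2, the receptor gene for neutrophil chemokines, overlapped between the groups, with 7.40, 7.61 and 4.62 in WT and 6.85, 4.49 and 4.94 in ST2KO. Fpr2, a formyl peptide receptor gene of phagocytes, differed by -2.38 ± 0.82 (-1.69 without WT array 2), with 6.14, 8.58 and 6.86 in WT and values between 4.64 and 4.91 in ST2KO. Camp, Ngp and Elane were above background on 1, 2 and 1 WT arrays and on no ST2KO array, but their levels overlapped between the genotypes. Camp differed by -0.16 ± 0.22 (-0.29 without WT array 2) and Ngp by -0.68 ± 0.36 (-0.82). Padi4 (-0.13 ± 0.19) and Retnlg (-0.17 ± 0.45) of the list lay near 0, and Ltb4r1 was above it (0.12 ± 0.20). The mean of the list was 7.23, 7.82 and 7.47 in WT and 6.67, 6.58 and 6.49 in ST2KO. After IL-33 the means overlapped, at 7.32, 7.96 and 6.90 in WT and 7.39, 6.44 and 6.55 in ST2KO. After IgE they did not, at 6.78, 7.11 and 7.17 against 6.46, 6.46 and 6.40. The part that neutrophil-lineage cells in the cultures had in this or in the interferon result was not tested.

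Markers of macrophages and monocytes had a median of -0.29 over 18 members, and -0.07 without WT array 2. In this list 4 members (22.2%, against 6.36% of all genes) did not overlap in the lower direction, and 1 (5.56%, against 8.23%) in the higher. Lyz2, the lysozyme gene of myeloid cells, differed by -1.09 ± 0.49 (-0.70 without WT array 2), with 10.88, 11.97 and 10.69 in WT and 10.67, 10.53 and 9.04 in ST2KO. The largest difference within the list was that of Lyz2, and Arg1, Chil1 and Fn1 were not among its members. Arg1, the arginase gene of alternatively activated macrophages, was at 8.06, 9.81 and 7.37 in WT and at 7.16, 6.07 and 4.69 in ST2KO, and differed by -2.44 ± 0.83 (-1.75 without WT array 2). Chil1, which encodes a chitinase-like protein, and Fn1, the fibronectin gene, were not above background on any ST2KO array and were at least 2.68-fold and 2.46-fold lower there than in WT, or 1.53-fold and 1.53-fold without WT array 2 (adjusted p = 0.553 for both in limma). Their WT levels were led by array 2, at 7.84 against 4.97 and 5.84 for Chil1 and at 7.47 against 5.38 and 5.43 for Fn1.

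Eosinophil markers had 5 of 8 members without overlap in the lower direction (62.5%, against 6.36% of all genes) and a median of -0.27 with and without WT array 2. Their mean was 6.65, 7.28 and 6.79 on the WT arrays and 6.60, 6.58 and 6.61 on the ST2KO arrays. The 5 included Alox15, which was above background on 1 WT array and on no ST2KO array. They also included Serpinb2, with the largest difference of the list (-0.71, and -0.29 without WT array 2). Serpinb2 was at 8.69, 9.99 and 8.72 on the unstimulated WT arrays and at 11.25, 11.44 and 11.07 on those after IL-33. Prg2, the major basic protein gene, lay between 7.09 and 9.46 in WT and between 8.15 and 8.59 in ST2KO, and Epx, Siglecf and Ccr3 were not above background on any of the 6 arrays. The part of eosinophils in the result was not tested.

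Acod1 and Cd40, genes of activated myeloid cells, were also lower on each ST2KO array than on each WT array. Acod1, which encodes the enzyme that makes itaconate, was at 10.09, 11.32 and 9.84 in WT and at 8.997, 8.69 and 8.19 in ST2KO. Its difference of -1.79 ± 0.35 (-2.53 to -1.06) had the lowest unadjusted p of the 9973 genes, 8.06e-05, and an adjusted p of 0.553 in limma, and it was -1.34 ± 0.31 without WT array 2. Cd40, a costimulatory receptor gene, was at 6.11, 7.52 and 5.92 in WT and at 5.27, 5.04 and 5.14 in ST2KO, a difference of -1.37 ± 0.30 that was -0.86 without WT array 2. The differences of its 4 kept probes ran from -1.37 to -0.15. WT array 2 was the highest array for both genes.

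Cytokine and chemokine genes that IL-33 is known to induce were compared next. Csf2, which encodes the growth factor GM-CSF, was at 7.37, 8.97 and 7.38 in WT and at 7.32, 6.65 and 6.18 in ST2KO. The nearest arrays of the groups almost met, at 7.37 and 7.32, and the difference of -1.19 ± 0.39 became -0.66 ± 0.33 without WT array 2. Tnf, the tumour necrosis factor gene, differed by -1.46 ± 0.48 and, without that array, by -0.74. For Il6, an acute inflammation cytokine gene, the difference was -0.72 ± 0.27 (-0.46 without WT array 2), with 7.502, 8.48 and 7.88 in WT and 7.28, 7.15 and 7.27 in ST2KO. Il1b, which encodes interleukin 1 beta, differed by 0.22 ± 0.15, and its groups overlapped. Il1rn, the gene of the interleukin 1 receptor antagonist, differed by -0.87 ± 0.28 (-0.52), with its 3 probes between -0.95 and -0.09. Among 8 inflammatory cytokine genes tested 0 passed, 5 were below 0, and the median was -0.15, or 0.03 without WT array 2.

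Chemokine genes gave 7 of 24 members without overlap in the lower direction (29.2%, against 6.36% of all genes) and 1 in the higher (4.17%, against 8.23%), and a median of -0.18, or -0.04 without WT array 2. Cxcl2, a neutrophil chemokine gene, differed by -0.98 ± 0.31 (-0.52 without WT array 2), and the macrophage inflammatory protein genes Ccl3 and Ccl4 by -0.59 ± 0.16 (-0.36) and -0.93 ± 0.28 (-0.59). Ccl4 was at 13.09, 13.87 and 12.64 in WT and at 12.55, 12.24 and 12.02 in ST2KO. These 3 genes did not overlap between the genotypes.

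Type 2 cytokine genes followed. Il4, the signature cytokine gene of basophils, was at 10.83, 11.03 and 10.83 in WT and at 10.59, 10.70 and 10.58 in ST2KO. No ST2KO array reached a WT array, and the difference was -0.27 ± 0.11 (-0.50 to -0.04, adjusted p = 0.553 in limma), or -0.20 ± 0.12 without WT array 2. Il13 was dim, at 4.90, 5.87 and 5.27 in WT and at 5.13, 4.96 and 5.03 in ST2KO. Its groups overlapped, and the difference of -0.31 ± 0.23 was -0.04 without WT array 2. Over 10 type 2 and growth cytokine genes tested the median was -0.29, or -0.08 without WT array 2. All 10 differences were below 0, and 2 (20%, against 6.36% of all genes) did not overlap in the lower direction.

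Most identity genes of the basophil had small differences. Cpa3, the carboxypeptidase gene of basophils and mast cells, lay between 14.27 and 14.43 on the 6 arrays, with a difference of -0.03 ± 0.11 (-0.26 to 0.20). Gata2, the transcription factor gene of the lineage, had means of 12.72 in both genotypes and a confidence interval from -0.20 to 0.19. Fcer1a, the alpha chain of the IgE receptor, differed by 0.10 ± 0.16 (-0.23 to 0.44). For these 3 genes the groups overlapped and the interval excluded a 2-fold difference in either direction. Cpa3 and Fcer1a, and also Hdc and Prss34, lay near the top of the intensity scale, where Ccl3 read 14.75 on each WT array after IgE. Whether differences are compressed there was not tested. Mcpt8, the basophil protease gene, differed by -0.31 ± 0.21 (-0.75 to 0.13) and by -0.08 without WT array 2. Cd200r3, a basophil receptor gene, differed by -0.33 ± 0.13 without overlap (-0.22 without WT array 2), with 12.74, 13.02 and 12.65 in WT and 12.59, 12.37 and 12.46 in ST2KO; its other kept probe differed by -0.03. Prss34, a mast cell protease gene of basophils, differed by -0.27 ± 0.12 and Hdc by -0.09 ± 0.09. Of 29 basophil markers tested of 32, 0 passed and 6 did not overlap in the lower direction (20.7%, against 6.36% of all genes), the median was -0.09, and for 27 the interval lay within 2-fold. Itgb4, the integrin beta 4 gene, differed by 0.44 ± 0.18 (0.35 without WT array 2), with 7.11, 6.80 and 7.02 in WT and 7.30, 7.48 and 7.47 in ST2KO. The groups did not overlap.

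**Figure D3:**
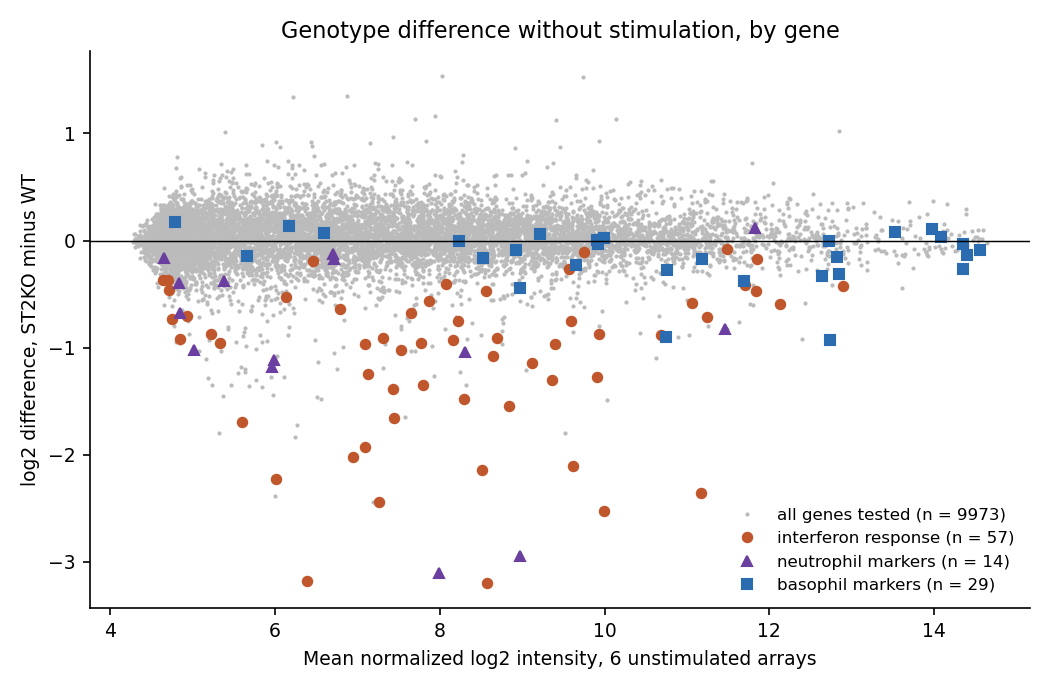
Genotype difference without stimulation (vertical axis, log2, ST2KO minus WT) against the mean normalized log2 intensity on the 6 arrays (horizontal axis), for 9973 genes. Grey points are all genes, orange circles are 57 interferon response genes, purple triangles are 14 neutrophil markers and blue squares are 29 basophil markers. Interferon response genes lie below 0, down to -3.19, while basophil markers lie between -0.93 and 0.17.

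The other parts of the IL-33 receptor and its signalling pathway were compared next. Il1rap, the accessory subunit gene, was dim and differed by -0.12 ± 0.17 (-0.0082 without WT array 2), and Myd88, which encodes the adaptor, differed by -0.33 ± 0.17 (-0.18). Il18r1 and Il18rap encode the subunits of the receptor for IL-18, a relative of IL-33, and are chromosomal neighbours of Il1rl1. Il18r1 was at 9.30, 9.25 and 9.05 in WT and at 8.77, 8.70 and 8.79 in ST2KO. Its unstimulated arrays were tight within each genotype and parted between them, and the difference was -0.45 ± 0.24 (-0.95 to 0.05), little moved without WT array 2 (-0.42). The difference was not the same in each treatment. After IL-33 Il18r1 differed by -0.13 and overlapped, with 8.59, 9.15 and 8.42 in WT and 8.89, 8.01 and 8.89 in ST2KO. After IgE it differed by -0.78 without overlap. Il18rap differed by -0.69 ± 0.32, with 7.44, 8.52 and 7.44 in WT and 7.42, 7.17 and 6.74 in ST2KO, and by -0.33 without WT array 2. Of 20 genes of IL-33 and IL-1 receptor signalling 0 passed, 4 did not overlap in the lower direction (20%, against 6.36% of all genes) and 18 had an interval within 2-fold of 0 difference.

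Genes that flank a targeted locus can be inherited with it, so the 25 nearest protein-coding genes on each side of Il1rl1 were examined. Of these 50 genes 26 were tested and 0 passed, and their median was 0.04. Of these, 3 did not overlap in the lower direction (11.5%, against 6.36% of all genes), namely Il18r1, Il18rap and Mitd1, a gene of the final step of cell division (-0.85 ± 0.35, and -0.45 without WT array 2). Cnot11, a subunit gene of the CCR4-NOT deadenylase, and Mrps9, a mitochondrial ribosomal protein gene, did not overlap in the higher direction (7.69%, against 8.23%), at 0.34 ± 0.14 and 0.18 ± 0.13.

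The 10 genes with the largest differences above 0 among those without overlap belonged to none of the lists, and WT array 2 was their lowest array. Tmem86a, which encodes a membrane lysoplasmalogenase, was at 8.33, 5.74 and 7.71 in WT and at 9.14, 8.44 and 8.81 in ST2KO. Its difference was 1.54 ± 0.74, and 0.78 without WT array 2. Nmb, the gene of the neuropeptide neuromedin B, was at 9.91, 7.70 and 9.32 in WT and at 10.35, 10.47 and 10.70 in ST2KO, a difference of 1.53 ± 0.57 that was 0.89 without that array. Gas2l3, a gene of a protein that links actin and microtubules, depended less on it. It was at 7.15, 6.86 and 7.38 in WT and at 7.84, 8.41 and 8.53 in ST2KO, and differed by 1.13 ± 0.27 (0.56 to 1.70, unadjusted p = 0.000648, adjusted p = 0.553 in limma) or by 0.996 ± 0.30 without WT array 2. The other 7 of these 10 genes differed by between 0.96 and 1.34, namely Spink4 (1.34 ± 0.47, and 0.87 without WT array 2), Enc1 (1.16 ± 0.43, 0.67), Rprm (1.13 ± 0.49, 0.45), Fam110c (1.13 ± 0.36, 0.81), Tgm2 (1.03 ± 0.40, 0.69), Myl10 (1.01 ± 0.38, 0.77) and Poln (0.96 ± 0.44, 0.42). Tgm2 encodes a transglutaminase and Rprm the cell cycle inhibitor reprimo. Tgm2 was the brightest of the 10, at 12.93, 11.68 and 12.41 in WT against 13.44, 13.25 and 13.41 in ST2KO.

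Cholesterol synthesis genes had the highest median of the lists, 0.27 over 15 members. Without WT array 2 it was 0.125, below the 0.131 of the 4 lymphocyte markers. In the higher direction 4 did not overlap (26.7%, against 8.23% of all genes), and 0 passed. They included Hsd17b7 (0.61 ± 0.28, and 0.44 without WT array 2) and Fdps (0.40 ± 0.23, 0.25), enzyme genes of the pathway, and Sqle, the squalene epoxidase gene (0.32 ± 0.20, 0.24). Stard4, a sterol transport gene, overlapped between the groups (0.50 ± 0.26, and 0.13 without WT array 2). Cyp51, which encodes lanosterol demethylase, had the opposite sign, with 7.34, 9.25 and 8.06 in WT, 7.18, 7.34 and 7.04 in ST2KO and a difference of -1.03 ± 0.40 (-0.52 without WT array 2). The signs thus differed among members of the pathway.

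**Figure D4:**
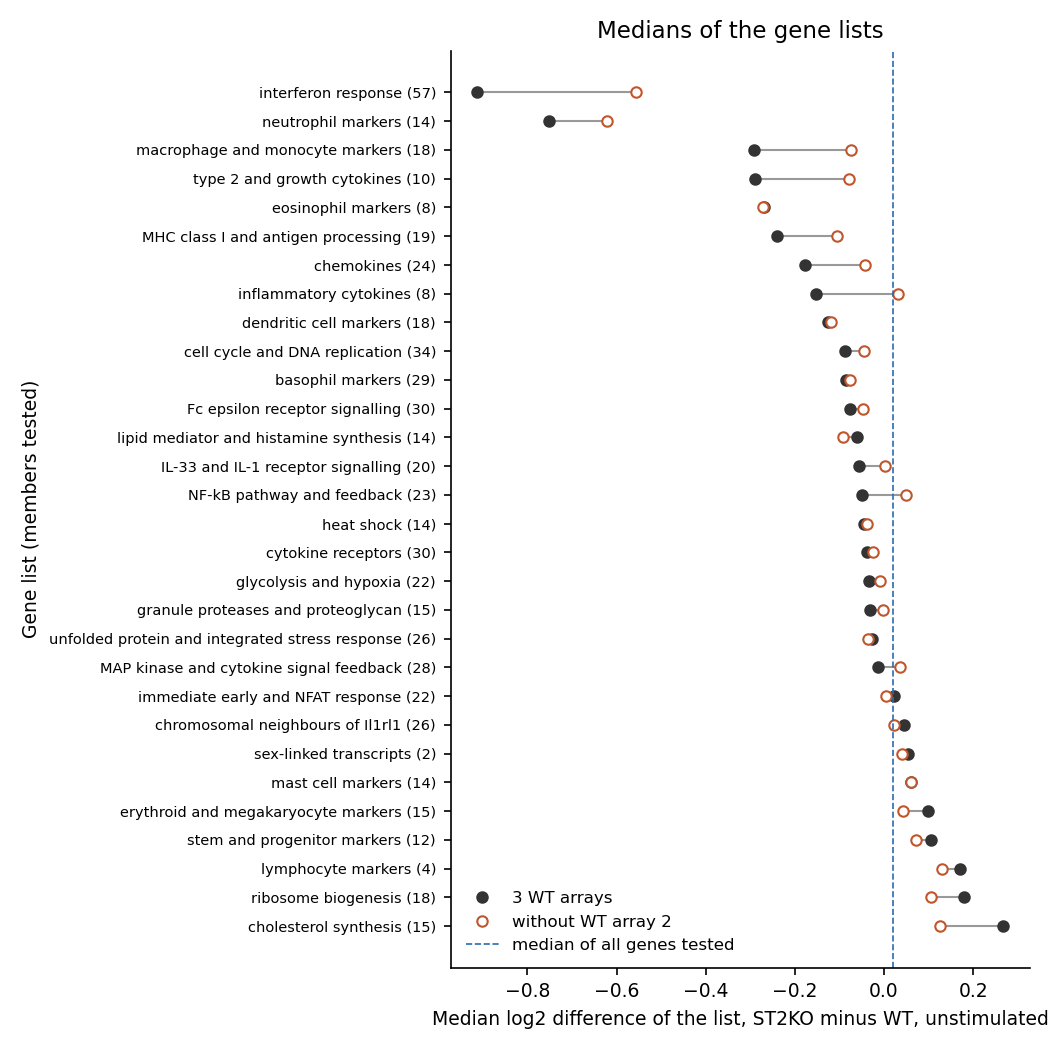
Median log2 difference without stimulation, ST2KO minus WT (horizontal axis), of 30 gene lists (vertical axis, with the number of members tested). Filled circles use the 3 WT arrays and open circles leave out WT array 2, and the dashed line is the median of all genes. The interferon response and neutrophil lists lie at -0.91 and -0.75 with all arrays and at -0.56 and -0.62 without WT array 2, while cell cycle, Fc epsilon receptor signalling and the stress response lists lie near the dashed line.

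For signalling from the IgE receptor and the machinery of growth no 2-fold difference lay within the intervals. For 30 genes of Fc epsilon receptor signalling the median was -0.08 (-0.05 without WT array 2), 2 did not overlap in the lower direction (6.67%, against 6.36% of all genes), and the 95% interval of all 30 stayed within 2-fold. The intervals also stayed within 2-fold for 34 cell cycle and DNA replication genes (median -0.09, and -0.05 without WT array 2), 22 genes of glycolysis and hypoxia (-0.03 and -0.0089) and 23 genes of the NF-kB pathway and its feedback (-0.05 and 0.05). They did so too for 18 ribosome biogenesis genes, whose median was 0.18, or 0.11 without WT array 2, and of which 5 did not overlap in the higher direction (27.8%, against 8.23% of all genes). Mast cell markers had a median of 0.06 over 14 members.

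A pair of gene families, chosen after their values were seen, describe how WT array 2 differed from the other unstimulated arrays. The 34 genes of NADH dehydrogenase subunits, the first complex of the respiratory chain, had means of 10.03, 9.36 and 10.02 on WT arrays 1, 2 and 3 and of 10.05, 10.02 and 10.08 on the ST2KO arrays. WT array 2 was the lowest of the 6 arrays for 30 of them. Ndufa3, one of these subunits, was at 11.57, 10.01 and 11.55 in WT and between 11.49 and 11.71 in ST2KO, and Polr2l, a small RNA polymerase subunit gene, was at 10.90, 9.37 and 10.93 against 10.90 to 11.04. Low values of Ndufa3 and Polr2l were not confined to WT array 2. After IL-33 Ndufa3 was at 11.73, 10.47 and 11.49 and Polr2l at 11.07, 9.92 and 10.81 in ST2KO. On WT array 2 after IgE they were at 11.67 and 11.55. For cytoplasmic ribosomal protein genes WT array 2 was lowest for 37 of 56. The median difference of the NADH dehydrogenase list was 0.24 with the array and 0.04 without it. At the other end Ch25h, which encodes cholesterol 25-hydroxylase, was at 5.23, 8.26 and 5.60 in WT and at 5.20, 5.18 and 4.63 in ST2KO, and its difference of -1.36 ± 0.79 was -0.41 without the array.

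Whether the difference between the genotypes depended on treatment was tested by the interaction. After IL-33 the genotype difference deviated from that at rest for 176 genes (1.76%), downwards for 158 and upwards for 18, and after IgE for 0 genes in limma (lowest adjusted p = 0.982, 434 at an unadjusted p under 0.05). After IL-33 itself 605 genes (6.07%) passed between the genotypes, 374 lower (3.75%) and 231 higher (2.32%), and after IgE 2 (0.0201%), Syn1 (-0.88) and Stmn1 (0.62). Both interactions share the unstimulated arrays and take all arrays as independent, so the values of each treatment are given side by side. Unstimulated, the 374 genes had a median difference of -0.08 (-0.04 without WT array 2), against -0.92 after IL-33. For 328 of them the unstimulated interval was within 2-fold of 0 difference, and 58 (15.5%, against 6.36% of all genes) did not overlap in the lower direction. The 231 genes had a median of 0.14 (0.09 without WT array 2) against 0.58 after IL-33, with 225 intervals within 2-fold and 41 (17.7%, against 8.23%) not overlapping in the higher direction. Cxcl2 differed by -0.98 ± 0.31 at rest and by -5.23 after IL-33, and Il6 by -0.72 ± 0.27 and -3.39. Cmpk2 differed by -3.19 ± 0.96 at rest and by -1.37 after IL-33 (adjusted p of the interaction = 0.69).

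**Figure D5:**
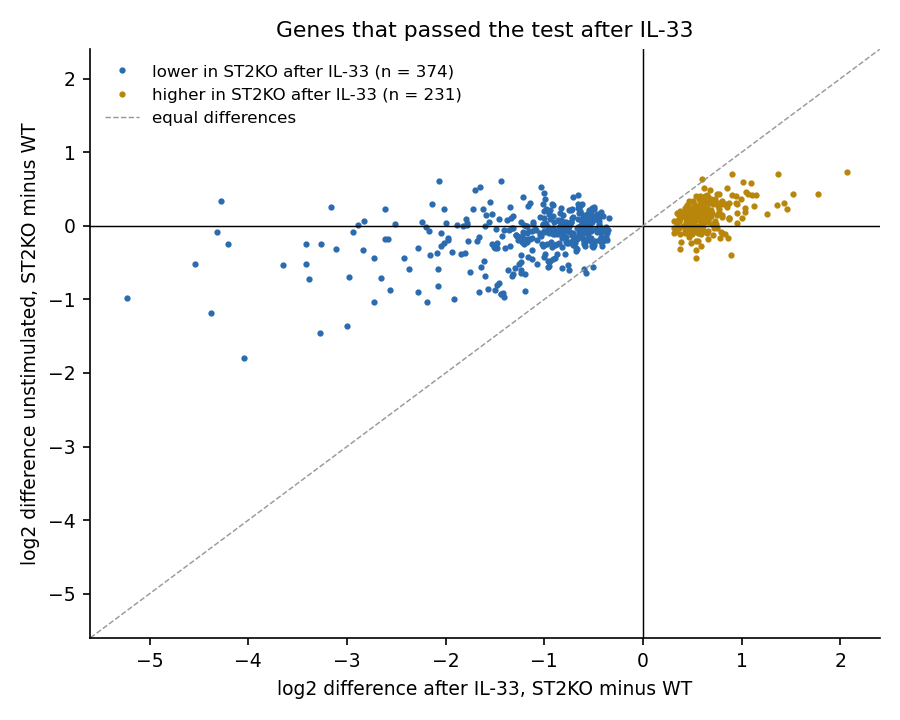
Genotype difference without stimulation (vertical axis, log2, ST2KO minus WT) against that after IL-33 (horizontal axis, same unit) for the 605 genes that passed the test after IL-33. Each point is 1 gene, 374 lower (blue) and 231 higher (gold) in ST2KO after IL-33, and the dashed line marks equal differences. Plat, a lower gene at -5.84 after IL-33 and -0.02 without stimulation, lies beyond the left edge and is not visible. Most points lie near 0 on the vertical axis, where the medians are -0.08 and 0.14.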

How the data were processed

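Per the file headers, the deposited signal table gives an average intensity per probe and array, which the authors had not normalized between arrays, and a detection p-value for each. The authors' processed values, deposited separately, are log2 values whose median was 4.29 on each array; their added constant, if any, is unknown. Their background correction and software are not given in the sources used here. Column-purified RNA was labelled with biotin, per the labels.

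Intensities were corrected and quantile normalized with neqc (limma 3.58.1, R 4.3.3, offset 16). Of 45281 probes, the 18078 detected (p-value under 0.05) on 3 or more of the 18 arrays were kept. Names came from GEO's platform annotation: 34885 probes had 1 symbol, 18 several and 10378 none. The brightest kept probe stood for each of 9973 genes. Of 34885 probes 34807 were found in the RefSeq table by Entrez identifier, and 0 symbols changed. A mean per group was fitted to the 18 arrays (lmFit, eBayes), so that 6 groups share 1 estimate of the spread, with Benjamini-Hochberg adjustment and a threshold of 0.05. The fit was tested on simulated data. Genes above background on all 3 arrays of 1 genotype and on none of the other have a bound. It sets the brighter group's mean against the mean, per array of the dimmer group, of the higher of its own level and the lowest detected level.

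Genes were named as the 10 largest differences each way without overlap, the largest 4 of each list, the 10 highest and lowest on WT array 2, and a fixed set of basophil genes. Isg15, Oasl1, Irf7, Irf9, Stat2, Slfn2, Acod1, Ccl3, Il1b, Lcn2, Ltf, Prss34, Hdc, Il1rap, Myd88, Cnot11, Mrps9, Sqle, Syn1 and Stmn1 were added after their values were seen. Members and lists were chosen with earlier results of these data known. The number of arrays limits the precision.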

Additional observations from a re-analysis of the deposited data

Results flagged for a closer look

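Of the genes named, 8 had a genotype difference after IL-33 that deviated from the unstimulated one in the interaction test of limma (adjusted p under 0.05, n = 3 arrays per group). The deviation, ST2KO minus WT after IL-33 less the same at rest, was -4.25 for Cxcl2, -3.18 for Csf2, -2.84 for Il1b, -2.67 for Il6, -2.25 for Acod1 (adjusted p = 0.021), -1.69 for Il1rn and -1.49 for Ccl3, and 1.33 for Itgb4.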

How the results depend on the processing

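The count of 0 genes between unstimulated genotypes held in 18 alternatives, with a lowest adjusted p of 0.0716, and the counts at an unadjusted p under 0.05 ran from 291 without WT array 2 to 1406 without WT array 1. The IgE interaction count was also 0 in each. The IL-33 interaction count of 176 became 300 with array weights, and ran from 139 to 168 when 1 unstimulated array was left out. Correlations of levels did not settle whether replicate numbers pair unstimulated WT with unstimulated ST2KO arrays. Same-numbered arrays correlated at 0.14, 0.09 and 0.15 in their deviations from the group means, and other numbers at -0.31 to 0.21. Not every array thus correlated best with its own number. The highest raw signal, however, set the number 2 arrays apart in both genotypes and all treatments. It was 24856 to 26701 on these arrays and 27364 to 30053 on the others. The number may thus mark arrays handled together, which was not tested and is not in the labels. Pairing of numbers across treatments within a genotype was not tested, and the main fit treated the 18 arrays as independent. The WT array numbered 2 had the highest interferon response mean in each treatment (9.52, 8.66 and 9.57 unstimulated, after IgE and after IL-33). With the replicate number as a block, the same in both genotypes, the counts were 0, 0 and 202. The block did move the unstimulated comparison. Its lowest adjusted p in limma was 0.0716 with the block and 0.553 in the main fit. At an unadjusted p under 0.05 there were 1064 genes with the block and 832 in the main fit. Of 1241 values for 69 named genes none passed, and 7 changed sign, all near 0: with median scaling Cpa3 gave 0.0363 and Gata2 0.0204, and with 1 unstimulated array left out Cpa3 ran from -0.0762 to 0.00847 and Gata2 from -0.0478 to 0.0297. List medians moved by more than the replicate spread in 34 of 540 values, and 24 values, from 12 lists, changed sign: that of the inflammatory cytokines went from -0.15 to 0.03 without WT array 2, and the others were within 0.06 of 0 with all arrays. Median scaling put 39.5% of all genes below 0 in place of 45.1%. Genes not above background on any array of 1 genotype have only a bound there.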
